A study of Mus musculus with 19 samples.

Results

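The transcriptomes of resting CCR1/2+ve and resting CCR2+ve bone marrow monocytes were compared across all genes. All libraries labelled resting_CCR1_2 and resting_CCR2 in the table of counts were taken, 4 of each, which are 8 of the 19 libraries of the series. The mice were female, 8 to 12 weeks of age, and carried the REP allele, a compound reporter of inflammatory chemokine receptors, CCR1, CCR2 and CCR3 among them, in which each receptor gene drives its own fluorescent protein. Both populations came from bone marrow of mice that had received no cytokines, and were separated by the CCR1 reporter (Clover) and the CCR2 reporter (mRuby2) on a cell sorter. The study states the gate CD11b+ Ly6C++ Ly6G- SiglecF- for these populations where it describes their sort for culture. CCR2+ve monocytes carried the mRuby2 signal alone and CCR1/2+ve monocytes carried both, so that reporter fluorescence and not receptor protein defined the groups. Labels do not say whether the 4 libraries of a population came from separate animals, and the p-values below therefore measure the spread between these libraries, which may be technical.

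Monocytes arise in the bone marrow from progenitors that can also give rise to neutrophils, and Ly6C-high monocytes leave the marrow through CCR2, the receptor for CCL2. CCR1 binds a wider group of inflammatory chemokines and is also carried by neutrophils and their precursors. Immature granulocyte and monocyte precursors divide and transcribe genes of the azurophil (primary) granules, which fall silent as the cells mature, whereas MHC class II, Fc receptor and dendritic cell genes mark other branches and stages of the monocyte lineage.

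The 8 libraries held between 23274596 and 30502009 reads on genes, and between 18225 and 20020 genes had at least 1 read. Levels are given as reads per 1000000 reads on genes (CPM) after scaling of library sizes, in the order of replicates 1 to 4, and each log2 fold change is that of CCR1/2+ve over CCR2+ve monocytes with its standard error. A count of 3 reads, the floor below which a level was not read as detected, equals 0.115 CPM on average in the CCR1/2+ve libraries and 0.123 CPM in the CCR2+ve libraries, for counting error only. On chromosome 13 only 10.4% of 374 protein-coding genes from position 58379817 onward reached a mean of 10 reads, against 52.1% of 461 genes before it, and Hnrnpk had 0 reads in the 8 libraries, so no value of a single gene from that stretch is given. Its genes were not removed from the counts, lists or sums. Of them 156 were tested, with 2 called upregulated and 1 downregulated.

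The genes of the sort markers and of the reporter locus were looked at first. The sort set the populations apart by the CCR1 reporter, whereas both carried the CCR2 reporter. Ccr1 was at 117, 102, 134 and 148 CPM in CCR1/2+ve and 72.4, 78.4, 82.7 and 86.8 CPM in CCR2+ve libraries. Ccr2 was at 772, 550.4, 793 and 728 CPM in CCR1/2+ve and 1431, 1033, 1331 and 1400.5 CPM in CCR2+ve libraries. Every CCR1/2+ve library lay above every CCR2+ve library for Ccr1 (log2 fold change 0.65 ± 0.11) and below them for Ccr2 (-0.87 ± 0.13). Ccr3, of the same reporter locus, was low but higher in all 4 CCR1/2+ve libraries, at 4.36, 1.88, 1.60 and 0.949 CPM in CCR1/2+ve and 0.393, 0.194, 0.164 and 0.0435 CPM in CCR2+ve libraries (log2 fold change 3.44 ± 0.60 (SE), adjusted p = 0.0018). Itgam, which encodes CD11b, was at 86.5 CPM or more in every library, and Ly6c2 was at 2607 CPM or more in each of them, with a log2 fold change of 0.01 ± 0.09 between the populations. Ly6g, the neutrophil antigen excluded in the stated gate, was at 0.300, 0.461, 0.819 and 0.610 CPM in CCR1/2+ve and at 0.480, 0.504, 0.574 and 0.348 CPM in CCR2+ve libraries. Siglecf, the eosinophil antigen excluded in the same gate, was at 1.39, 3.26, 1.90 and 3.56 CPM in CCR1/2+ve and 0.567, 1.13, 1.52 and 0.827 CPM in CCR2+ve libraries. Its higher level (log2 fold change 1.32 ± 0.38 (SE), adjusted p = 0.033) was not kept in every fit with 1 library left out. The adjusted p was 0.090 to 0.096 without CCR1/2+ve replicate 2 or 4 or CCR2+ve replicate 1 or 4.

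In all, 437 genes were upregulated and 355 were downregulated in CCR1/2+ve monocytes at an adjusted p under 0.05 with a change of 1 or more on the log2 scale. These are 2.34% and 1.9% of the 18652 genes tested, and 792 genes or 4.25% in all. Without the cutoff on the fold change, 1575 genes were higher (8.44%) and 1574 were lower (8.44%). Most of the called differences were small, since 312 of the 437 upregulated and 275 of the 355 downregulated genes had a change between 1 and 2 on the log2 scale, and 67 and 47 genes reached 3. Among called genes, large changes went with low levels, which is partly given by the calls, since at few reads only large changes pass. The median absolute log2 fold change of called genes was 5.13 under 0.1 CPM and 2.92 at 0.1 to 1 CPM. It was 1.17 at 10 to 100 CPM and 1.10 at 100 CPM and over. The 4 libraries of one population did not overlap with the 4 of the other for 400 of the upregulated and 317 of the downregulated genes, against 10.7% and 9.67% of all genes tested that lay without overlap in these directions. The calls were made on the same libraries, so this lack of overlap is partly given by the calls. Leaving out each library in turn kept 205 of the 437 and 185 of the 355 genes called every time, and the count of upregulated genes ranged from 258 without CCR2+ve replicate 4 to 618 without CCR2+ve replicate 2.

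By class of gene, 318 of the upregulated and 326 of the downregulated genes were protein-coding, of 12531 tested. Long intergenic non-coding RNAs were called upregulated 21 times (2.9%) and downregulated 3 times (0.42%) among 718 tested. Transcripts of the TEC class, which still await experimental evidence, were called 32 times (3.1%) and 2 times (0.19%) among 1032. The upward shares of both classes were near the 2.34% of all genes tested, and the downward shares were below the 1.9% of all. Genes between 1 and 10 CPM were called most often, at 4.95% upward and 4.06% downward of 3498 genes. Counts in the lists below stand beside 2.34% upregulated and 1.9% downregulated of all genes, and 8.44% each way by adjusted p alone. By adjusted p alone more genes passed at higher levels, with 826 higher and 781 lower of 5593 between 10 and 100 CPM. Of the genes named, Itgam, Mpo, S100a4, Prss57, Ccne2, Cdk4, Cdkn1c, Cebpb, Meis1, Hoxa7, H2-DMa, Rtp4, Csf1r, Cd9, Cxcl16, Icam1 and Klrb1c share more than 10% of their exonic bases with another annotated gene, so that without strand a part of their reads may belong to it. In bulk libraries such as these, fewer cells of a type and less RNA per cell cannot be told apart, which holds for each difference that follows. The gene lists below were chosen with earlier results of these data known, so their counts and medians are partly given by that choice.

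**Figure D1:**
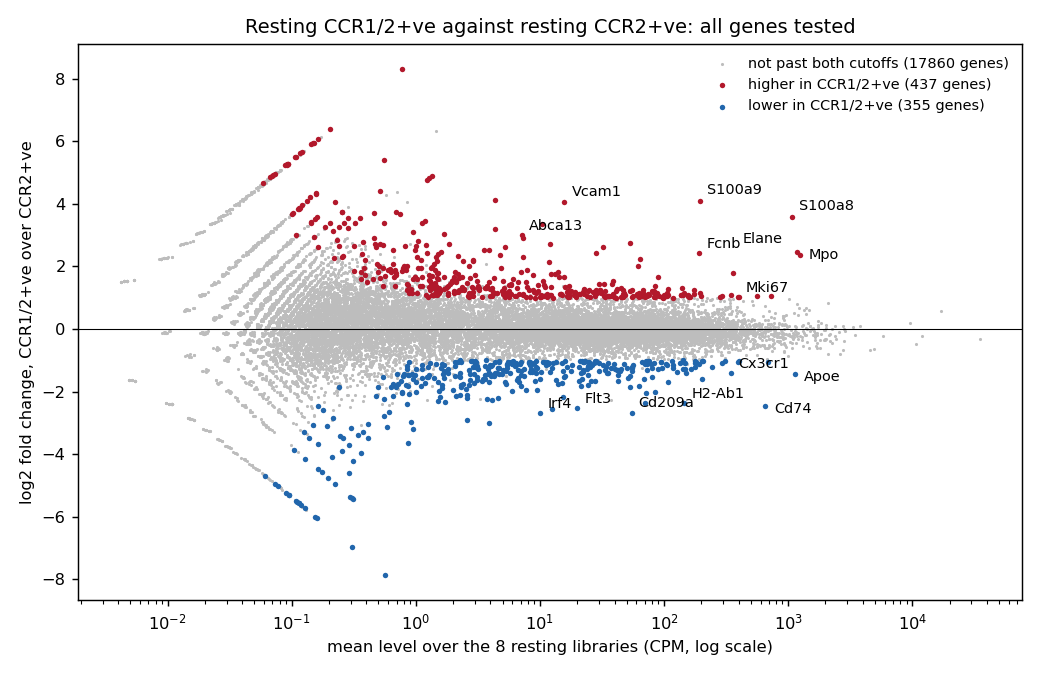
Mean level of the 8 resting libraries (CPM, log x axis) against the log2 fold change of CCR1/2+ve over CCR2+ve monocytes (y axis), with 1 point for each of the 18652 genes tested and genes past both cutoffs in red (higher) or blue (lower). S100a8, S100a9, Mpo and Elane are upregulated genes of high level, Cd74 and H2-Ab1 downregulated ones, and the lines of points at the left are genes of few reads.

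The smallest p of all genes was that of S100a9, which with S100a8 forms calprotectin, a calcium-binding protein that neutrophils and monocytes store in their cytosol. S100a9, which lies beside S100a8 on chromosome 3 (GRCm38 chr3:90692632-90695721 and chr3:90668978-90670035), was at 356, 369, 305 and 434 CPM in CCR1/2+ve and 22.8, 28.2, 18.6 and 17.0 CPM in CCR2+ve libraries. S100a8 was at 1923, 2164, 1701 and 2186 CPM in CCR1/2+ve and 128, 263, 146 and 132 CPM in CCR2+ve libraries. The lowest CCR1/2+ve library stood far above the highest CCR2+ve library for both genes, with log2 fold changes of 4.08 ± 0.16, adjusted p = 9.0e-08 and of 3.57 ± 0.23, adjusted p = 1.6e-05. Of the other S100 genes tested, S100a1 was higher by a small and even margin, without overlap (0.50 ± 0.07, adjusted p = 0.00040), and S100a10 was higher with 1 CCR2+ve library inside the range of the CCR1/2+ve libraries (0.48 ± 0.12, adjusted p = 0.016). In total 2 of 10 S100 genes were called and 4 were higher at an adjusted p below 0.05, with a median log2 fold change of 0.35. In a fit of 15 libraries, with the inflamed ones, S100a10 did not pass (adjusted p = 0.059). S100a6, S100a4 and S100a11 did not pass (adjusted p = 0.23, 0.21 and 0.29).

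Primary granule genes were upregulated almost throughout in CCR1/2+ve monocytes. Of 13 tested genes of primary granules and early neutrophil proteins, 10 were upregulated past both cutoffs and 11 had an adjusted p below 0.05, none was lower, and the median log2 fold change was 2.36, against 0.03 over all genes tested. Together they made up 4720 to 9078 CPM in CCR1/2+ve and 1422 to 2679 CPM in CCR2+ve libraries. Fcnb, which encodes the lectin ficolin B, was at 330.0, 356, 328 and 289.7 CPM in CCR1/2+ve and 46.1, 74.4, 76.8 and 44.4 CPM in CCR2+ve libraries. Prtn3, proteinase 3, was at 540.4, 728, 511 and 457 CPM in CCR1/2+ve and 131.5, 236, 186.5 and 97.2 CPM in CCR2+ve libraries. Both separated the populations without overlap (2.43 ± 0.17, adjusted p = 1.6e-05 and 1.78 ± 0.27, adjusted p = 0.0020). Ms4a3, a membrane gene of granulocyte and monocyte progenitors, was at 84.5, 160.4, 60.3 and 67.0 CPM in CCR1/2+ve and 12.3, 26.9, 10.3 and 6.10 CPM in CCR2+ve libraries. Cd63, a tetraspanin of granule membranes, was at 24.8, 34.8, 13.7 and 10.4 CPM in CCR1/2+ve and 3.45, 5.005, 2.63 and 1.52 CPM in CCR2+ve libraries. For both genes replicate 2 was the highest library of either population, and the log2 fold changes were 2.74 ± 0.50, adjusted p = 0.0081 and 2.72 ± 0.44, adjusted p = 0.0026.

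Elane, neutrophil elastase, was at 1873, 3057.5, 1530.5 and 1457 CPM in CCR1/2+ve and 289, 653, 346 and 159 CPM in CCR2+ve libraries, a log2 fold change of 2.45 ± 0.45, adjusted p = 0.0078. Mpo, myeloperoxidase, was likewise highest in replicate 2 of each population, at 1952, 3578, 1418 and 1349.8 CPM in CCR1/2+ve and 345, 796, 311 and 159.6 CPM in CCR2+ve libraries (2.36 ± 0.55, adjusted p = 0.024). This call was not kept in every fit, since the adjusted p was 0.053 to 0.082 without CCR1/2+ve replicate 1 or 2 or CCR2+ve replicate 3, and 0.058 with no filter on low counts. Further upregulated members were Cst7, the protease inhibitor cystatin F (1.75 ± 0.34, adjusted p = 0.0052), Prss57, neutrophil serine protease 4 (2.92 ± 0.33, adjusted p = 0.00012), Igfbp4, a binding protein of insulin-like growth factors (1.01 ± 0.21, adjusted p = 0.0052), and Hsd17b1, a steroid dehydrogenase of low level (2.7003 ± 0.69, adjusted p = 0.017). For Igfbp4 the log2 fold change was 0.84 to 0.86 without CCR1/2+ve replicate 2 or CCR2+ve replicate 4. For Hsd17b1 the adjusted p was 0.052 to 0.053 without CCR1/2+ve replicate 2 or CCR2+ve replicate 4. Prss57 shares 40.7% of its exonic bases with another annotated gene, and reads of the pair cannot be told apart without strand. Prss57, Prtn3 and Elane lie within one stretch of chromosome 10 (GRCm38 chr10:79781474-79790961 to chr10:79886247-79888215). Serpinb1a, an inhibitor of neutrophil proteases, was at 209, 219.8, 211 and 197 CPM in CCR1/2+ve and 90.6, 126, 112 and 90.1 CPM in CCR2+ve libraries, higher in each CCR1/2+ve library but with a log2 fold change of 0.999 ± 0.11 that stood at the cutoff, and was called once replicate numbers were kept as a block (adjusted p = 3.0e-08). The libraries of the remaining 2 members overlapped, among them Clec12a, an inhibitory lectin receptor (0.10 ± 0.09, adjusted p = 0.50).

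Genes of the later granules moved less evenly. Of 22 tested genes of secondary and tertiary granules 5 were upregulated, 9 were higher at an adjusted p below 0.05 and 13 did not pass. The 5 upregulated genes are also in the study's own list of neutrophil genes, so their calls are not separate support for it. Abca13, a lipid transporter, was at 13.7, 11.5, 10.4 and 15.5 CPM in CCR1/2+ve and 1.44, 1.16, 2.13 and 1.61 CPM in CCR2+ve libraries (3.01 ± 0.22, adjusted p = 1.6e-05). Lcn2, the siderophore-binding lipocalin, was at 71.6, 83.6, 120.3 and 149 CPM in CCR1/2+ve and 12.5, 19.9, 29.3 and 29.0 CPM in CCR2+ve libraries (2.23 ± 0.32, adjusted p = 0.0017). Mmp9, gelatinase B, reached 3.72, 1.67, 1.47 and 2.64 CPM in CCR1/2+ve libraries and 0.131, 0.0776, 0.123 and 0 CPM in CCR2+ve libraries (4.76 ± 0.56, adjusted p = 0.00017). The highest CCR2+ve library lay below the lowest CCR1/2+ve library for these 3 genes, although Mmp9 was at or near the floor in CCR2+ve monocytes, and likewise for Wfdc21, a secreted whey acidic protein (3.18 ± 0.32, adjusted p = 7.6e-05), and Mgam, maltase-glucoamylase (4.90 ± 0.68, adjusted p = 0.00041). Pglyrp1, a peptidoglycan-binding protein (0.75 ± 0.16, adjusted p = 0.0076), and Anxa1, annexin A1 (0.59 ± 0.08, adjusted p = 0.00041), were higher by less than the cutoff. By contrast Ltf, lactoferrin, which defines secondary granules, was at 3.76, 2.73, 0.992 and 6.95 CPM in CCR1/2+ve and 12.4, 5.47, 6.07 and 4.75 CPM in CCR2+ve libraries (adjusted p = 0.20), and Retnlg gave an adjusted p of 0.29. The 15 markers of mature neutrophils, given beside these granule genes, summed to 1311 to 1899 CPM in CCR1/2+ve and 1618 to 2411 CPM in CCR2+ve libraries. Of them 2 were upregulated (Mmp9 and Cxcr2), their median log2 fold change was 0.02, and 1 marker had 0 reads in all 8 libraries. The part of mature neutrophils in the granule gene differences was not tested.

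**Figure D2:**
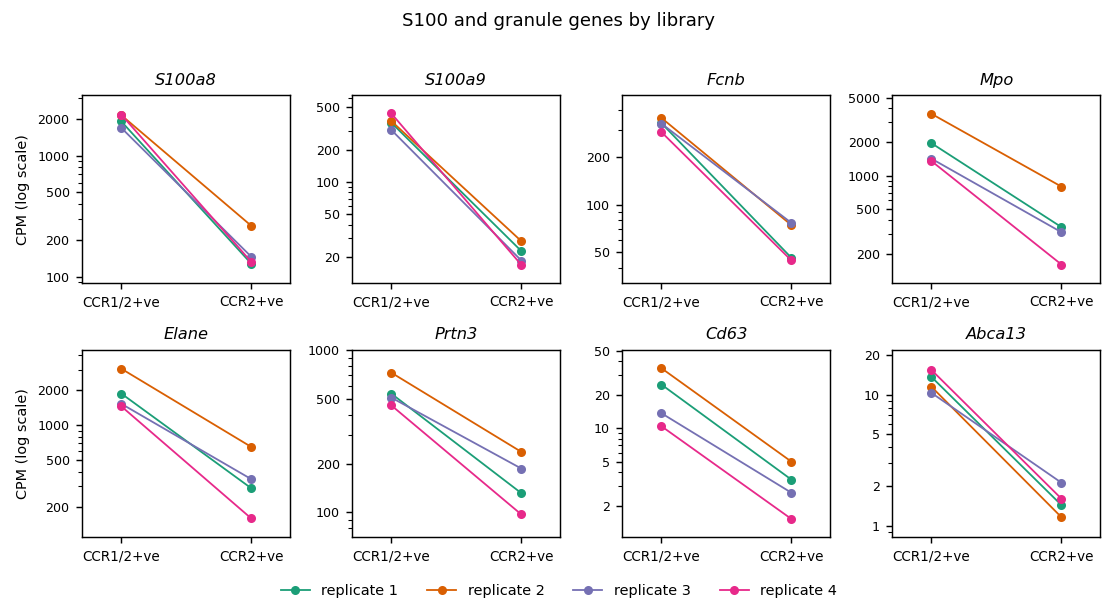
Levels of S100 and granule genes (CPM, log axis, 1 panel a gene) in the 8 resting libraries, with 1 point for each library and lines between libraries of equal replicate number. Every line falls from the CCR1/2+ve to the CCR2+ve library, and no CCR2+ve library reaches the lowest CCR1/2+ve one.

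Receptors by which neutrophils sense bacteria and chemokines split in both directions. Of 17 tested, 5 were upregulated, a further gene was higher below the fold cutoff, and 3 were lower. Trem1 and Trem3, activating receptors that signal through DAP12, were upregulated (1.18 ± 0.22, adjusted p = 0.0027 and 1.38 ± 0.10, adjusted p = 1.6e-05), with Trem1 at 6.16, 7.52, 6.77 and 8.03 CPM in CCR1/2+ve and 2.62, 4.54, 2.503 and 2.87 CPM in CCR2+ve libraries. Fpr1, the formyl peptide receptor, was at 26.2, 20.5, 25.0 and 33.1 CPM in CCR1/2+ve and 8.59, 8.50, 11.3 and 20.2 CPM in CCR2+ve libraries (1.11 ± 0.25, adjusted p = 0.010). For Fpr1 the log2 fold change was 0.97 to 0.98 without CCR1/2+ve replicate 4 or CCR2+ve replicate 1 or 2. The 4 CCR1/2+ve libraries lay above the 4 CCR2+ve libraries for these receptors, and also for Cxcr4, the receptor for CXCL12 that retains cells in the marrow (0.81 ± 0.16, adjusted p = 0.0040). Mrgpra2b, a receptor of low level (2.41 ± 0.60, adjusted p = 0.015), and Cxcr2, the receptor for CXCL1 and CXCL2 (1.99 ± 0.54, adjusted p = 0.022), were called as well. For Mrgpra2b the adjusted p was 0.070 without CCR1/2+ve replicate 2. For Cxcr2 the adjusted p was 0.063 to 0.069 without CCR1/2+ve replicate 1 or 4 or CCR2+ve replicate 1 or 4. Tlr2, a receptor for bacterial lipoproteins, was lower in every CCR1/2+ve library, at 110.3, 91.7, 131 and 104 CPM in CCR1/2+ve and 160.1, 144, 170 and 201 CPM in CCR2+ve libraries (-0.63 ± 0.12, adjusted p = 0.0033). Cd14, the co-receptor for lipopolysaccharide, was lower as well (-0.72 ± 0.16, adjusted p = 0.0096). For Csf3r, the receptor for G-CSF, the log2 fold change was -0.31 ± 0.10, adjusted p = 0.043. For Csf3r the adjusted p was 0.058 to 0.13 without CCR1/2+ve replicate 2 or 4 or CCR2+ve replicate 1, 3 or 4.

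Genes of the cell cycle were higher in CCR1/2+ve monocytes with few exceptions. Of 51 tested genes of mitosis and chromosome segregation 20 were upregulated past both cutoffs, 50 were higher at an adjusted p below 0.05, and 1 was lower, with a median log2 fold change of 0.96. Cenpf, a kinetochore protein, was at 181, 197, 181 and 183 CPM in CCR1/2+ve and 88.1, 96.7, 86.5 and 76.7 CPM in CCR2+ve libraries (1.09 ± 0.08, adjusted p = 1.6e-05). Bub1, a kinase of the spindle checkpoint, was at 113, 113, 109.8 and 123 CPM in CCR1/2+ve and 55.9, 53.5, 49.4 and 40.8 CPM in CCR2+ve libraries (1.20 ± 0.10, adjusted p = 3.4e-05). Mki67, the proliferation antigen Ki-67, was at 524, 555, 502 and 565 CPM in CCR1/2+ve and 261, 298, 279 and 222 CPM in CCR2+ve libraries (1.02 ± 0.09, adjusted p = 5.6e-05). For the 3 genes the libraries of each population lay close together and the populations were about 2-fold apart, as they were for the kinetochore genes Knl1 (1.16 ± 0.10, adjusted p = 4.1e-05) and Cenpe (1.05 ± 0.09, adjusted p = 4.1e-05), the checkpoint gene Mad2l1 (1.31 ± 0.12, adjusted p = 5.2e-05) and the mitotic kinase Cdk1 (1.251 ± 0.11, adjusted p = 5.6e-05). Since so many members lay near the fold cutoff, the number called depended on it. For Mki67 the log2 fold change was 0.93 to 0.999 without CCR1/2+ve replicate 2 or 4 or CCR2+ve replicate 4. For Cenpe the log2 fold change was 0.96 without CCR2+ve replicate 4. The exception was Pttg1, which encodes securin, at 57.9, 46.7, 46.3 and 52.5 CPM in CCR1/2+ve and 74.2, 59.4, 62.8 and 77.8 CPM in CCR2+ve libraries (-0.43 ± 0.11, adjusted p = 0.015). For Pttg1 the adjusted p was 0.053 without CCR2+ve replicate 1.

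DNA replication genes followed with smaller differences. Of 51 tested 9 were upregulated, 45 were higher at an adjusted p below 0.05 and none was lower, with a median log2 fold change of 0.74. Rrm2, a subunit of ribonucleotide reductase, was at 701, 782, 726 and 815 CPM in CCR1/2+ve and 332, 422, 374 and 328 CPM in CCR2+ve libraries (1.05 ± 0.09, adjusted p = 5.2e-05). Cdc7, the kinase that fires replication origins, was at 37.3, 60.1, 32.9 and 40.3 CPM in CCR1/2+ve and 16.2, 22.9, 17.4 and 16.1 CPM in CCR2+ve libraries (1.23 ± 0.18, adjusted p = 0.00060). Neither gene overlapped between the populations, and Rpa3 (1.06 ± 0.11, adjusted p = 9.7e-05), Tk1 (1.03 ± 0.11, adjusted p = 0.00011) and Tyms (1.16 ± 0.16, adjusted p = 0.00050), which serve single-strand binding and thymidine supply, were called too. For Rrm2 the log2 fold change was 0.99 without CCR2+ve replicate 4. For Rpa3 the log2 fold change was 0.96 without CCR2+ve replicate 4. For Tk1 the log2 fold change was 0.96 to 0.97 without CCR1/2+ve replicate 4 or CCR2+ve replicate 4. Pola1, the catalytic subunit of DNA polymerase alpha (0.91 ± 0.11, adjusted p = 0.00020), Rrm1 (0.93 ± 0.11, adjusted p = 0.00020) and Pcna, the sliding clamp (0.62 ± 0.08, adjusted p = 0.00027), were higher without reaching the fold cutoff. The origin recognition genes Orc3 (0.23 ± 0.07, adjusted p = 0.054), Orc4 (0.12 ± 0.08, adjusted p = 0.33) and Orc5 (0.25 ± 0.11, adjusted p = 0.17) did not pass.

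Regulators that act before S phase moved in both directions. Among 27 tested cyclins, CDK inhibitors and E2F regulators, 12 were higher and 4 were lower at an adjusted p below 0.05, with 2 called each way. Ccne2, cyclin E2, was upregulated (1.15 ± 0.20, adjusted p = 0.0030), and Cdk4 (0.61 ± 0.08, adjusted p = 0.00028), Ccne1 (0.85 ± 0.12, adjusted p = 0.00038), Rbl1 (0.57 ± 0.07, adjusted p = 0.00030) and E2f7 (0.98 ± 0.13, adjusted p = 0.00039) were higher by less. Cdkn1c, the CDK inhibitor p57, was lower, at 0.338, 0.177, 0.388 and 0.339 CPM in CCR1/2+ve and 1.40, 1.13, 1.40 and 1.09 CPM in CCR2+ve libraries (-1.999 ± 0.38, adjusted p = 0.0030). So was Btg1, an antiproliferative gene, at 207, 194, 207 and 218 CPM in CCR1/2+ve and 367, 343, 440.0 and 519.5 CPM in CCR2+ve libraries (-1.02 ± 0.12, adjusted p = 0.00013). For Btg1 the log2 fold change was -0.91 to -0.99 without CCR1/2+ve replicate 2 or CCR2+ve replicate 3 or 4. With the replicate block its log2 fold change was -0.998, just short of the cutoff. Ccnd2, cyclin D2, was highest in replicates 1 and 2 of the CCR1/2+ve libraries, at 10.8, 13.6, 3.71 and 5.66 CPM in CCR1/2+ve and 3.88, 3.53, 2.503 and 2.96 CPM in CCR2+ve libraries (1.39 ± 0.35, adjusted p = 0.015). For Ccnd2 the adjusted p was 0.051 to 0.052 without CCR1/2+ve replicate 2 or CCR2+ve replicate 3 or 4. Ribosome biogenesis genes, which often rise with growth, showed no gene past both cutoffs among 29 tested and 7 that were higher at an adjusted p below 0.05, led by Nop56 (0.50 ± 0.10, adjusted p = 0.0041), and their median log2 fold change was 0.05.

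The promoters of the cell cycle genes were read for motifs by which such genes are known to be controlled, since members of the lists moved together. Of the 51 tested mitosis genes 42 had a promoter in the RefSeq table (GRCm38.p6, 250 bases before to 50 after the start of transcription, 45 windows), and 84.4% of the windows held the cell cycle homology region (CHR, TTTGAA or TTCGAA on either strand), against 19.2% of all 32851 windows of 27025 genes. The CCAAT box (CCAAT on either strand) was in 75.6% of them and in 37.4% of all windows, and both motifs stood together in 71.1% and in 7.52%. For the DNA replication genes the E2F motif (TTTCCCGC, TTTGGCGC, TTCCCGCC or TTTCGCGC on either strand, which can overlap one another) was in 42.6% of 54 windows of 44 genes, against 3.49% of all windows, whereas the CHR was in 18.5%. Such matches describe the letters in these windows and not sites that are bound. Shown first, in the direction of the gene and with CHR and CCAAT matches in capitals, are the mitosis genes with the smallest p that hold both, Cenpf (GRCm38.p6 chr1:189688037-189688336, minus strand) and Bub1 (chr2:127831810-127832109, minus strand).
Cenpf: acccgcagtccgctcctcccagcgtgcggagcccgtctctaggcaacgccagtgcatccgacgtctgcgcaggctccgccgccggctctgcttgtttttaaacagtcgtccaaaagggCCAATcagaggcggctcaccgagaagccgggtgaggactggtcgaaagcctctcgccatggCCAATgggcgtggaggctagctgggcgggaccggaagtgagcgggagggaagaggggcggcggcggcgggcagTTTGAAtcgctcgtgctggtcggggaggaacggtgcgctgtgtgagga
Bub1: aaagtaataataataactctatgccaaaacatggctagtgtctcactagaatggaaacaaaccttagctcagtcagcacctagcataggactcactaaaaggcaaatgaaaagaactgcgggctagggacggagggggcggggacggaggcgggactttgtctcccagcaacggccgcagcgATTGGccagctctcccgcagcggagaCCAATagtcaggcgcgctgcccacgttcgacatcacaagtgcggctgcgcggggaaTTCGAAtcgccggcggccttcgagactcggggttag
The CHR of Cenpf and Bub1 began 2 and 14 bases after the start of transcription, and the first of the 2 CCAAT boxes in each began 132 and 68 bases before it. For the replication genes, Pola1 (chrX:93632106-93632405, minus strand) and Rrm1 (chr7:102441445-102441744, plus strand) are shown with the E2F match in capitals, which began 138 and 67 bases before the start.
Pola1: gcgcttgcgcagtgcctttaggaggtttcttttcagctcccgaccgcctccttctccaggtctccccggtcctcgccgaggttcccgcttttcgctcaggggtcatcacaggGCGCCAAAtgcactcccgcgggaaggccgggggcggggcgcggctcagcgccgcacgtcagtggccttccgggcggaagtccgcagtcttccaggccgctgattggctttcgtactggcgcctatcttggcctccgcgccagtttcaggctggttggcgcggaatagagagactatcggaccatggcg
Rrm1: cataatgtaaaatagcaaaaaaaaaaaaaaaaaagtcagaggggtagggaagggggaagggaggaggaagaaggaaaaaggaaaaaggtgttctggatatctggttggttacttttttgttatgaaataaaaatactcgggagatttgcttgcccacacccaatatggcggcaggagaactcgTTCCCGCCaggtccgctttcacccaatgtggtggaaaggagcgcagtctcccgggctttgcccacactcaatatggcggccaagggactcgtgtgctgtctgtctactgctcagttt

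Of the myeloid transcription factors that passed the test, most were lower in CCR1/2+ve monocytes. Of 41 tested 8 were downregulated and 1 was upregulated, and 20 were lower and 2 higher at an adjusted p below 0.05, with a median log2 fold change of -0.62. Irf4, an interferon regulatory factor that dendritic cells use, was at 2.74, 3.12, 1.94 and 2.98 CPM in CCR1/2+ve and 18.8, 14.5, 16.9 and 19.6 CPM in CCR2+ve libraries (-2.69 ± 0.17, adjusted p = 1.5e-05). Klf2, a factor of quiescent cells, was at 35, 26.8, 32.2 and 41.3 CPM in CCR1/2+ve and 83.6, 112, 156 and 189 CPM in CCR2+ve libraries (-1.999 ± 0.24, adjusted p = 0.00039). The highest CCR1/2+ve library lay well below the lowest CCR2+ve library for both genes. Cebpb, a factor that Ly6C-low monocytes require, was at 21.0, 21.3, 28.1 and 30.0 CPM in CCR1/2+ve and 39.2, 60.3, 72.7 and 80.2 CPM in CCR2+ve libraries (-1.33 ± 0.20, adjusted p = 0.00076). Nr4a1, on which the same cells depend, was at 33.0, 15.4, 20.2 and 28.3 CPM in CCR1/2+ve and 74.7, 39.5, 46.0 and 80.1 CPM in CCR2+ve libraries (-1.31 ± 0.29, adjusted p = 0.013). Batf3 (-1.82 ± 0.29, adjusted p = 0.00098) and Tcf4 (-1.10 ± 0.13, adjusted p = 0.00018), factors of dendritic cell subsets, and Maf (-1.03 ± 0.17, adjusted p = 0.0014), a macrophage factor, were downregulated too. For Maf the log2 fold change was -0.92 to -0.99 without CCR1/2+ve replicate 2 or CCR2+ve replicate 1 or 4. Id1, an inhibitor of basic helix-loop-helix factors, was the gene with the smallest p in the other direction (0.85 ± 0.09, adjusted p = 7.7e-05), below the fold cutoff. Myb, a factor of progenitors, was called upregulated (1.02 ± 0.27, adjusted p = 0.021). For Myb the adjusted p was 0.050 to 0.074 without CCR1/2+ve replicate 2 or CCR2+ve replicate 1, 3 or 4. Of the general myeloid factors, Irf8 and Runx1 gave log2 fold changes of 0.16 ± 0.08 and 0.17 ± 0.07 with adjusted p-values of 0.23 and 0.15. Spi1, which encodes PU.1, was at 592, 543, 695 and 703 CPM in CCR1/2+ve and 755, 709, 813 and 857 CPM in CCR2+ve libraries (-0.31 ± 0.10, adjusted p = 0.0497). For Spi1 the adjusted p was 0.056 to 0.13 without CCR1/2+ve replicate 1 or 2 or CCR2+ve replicate 1, 3 or 4. With no filter on low counts Myb and Nr4a1 did not pass (adjusted p = 0.085 and 0.061), nor did Id1 in the fit of 15 libraries (adjusted p = 0.20) or Spi1 with the filter set on the resting libraries (adjusted p = 0.052).

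Progenitor genes did not share a direction. Of 23 tested 4 were upregulated and 4 downregulated. Flt3, the receptor tyrosine kinase of dendritic cell and lymphoid precursors, was at 3.87, 6.24, 6.30 and 7.29 CPM in CCR1/2+ve and 23.9, 25.7, 34.6 and 52.4 CPM in CCR2+ve libraries (-2.52 ± 0.26, adjusted p = 9.4e-05). Meis1 (-1.35 ± 0.19, adjusted p = 0.00056), Ly6a, which encodes Sca-1 (-1.62 ± 0.27, adjusted p = 0.0014), and Hoxa7 (-1.67 ± 0.38, adjusted p = 0.0099) were downregulated with it. Muc13, a membrane mucin, was upregulated at low level (2.31 ± 0.56, adjusted p = 0.013), and Kit, the stem cell factor receptor, was at 3.15, 8.87, 2.42 and 1.19 CPM in CCR1/2+ve and 1.57, 0.970, 0.205 and 0.697 CPM in CCR2+ve libraries (2.18 ± 0.63, adjusted p = 0.032). The Kit values overlapped. For Kit the adjusted p was 0.067 to 0.12 without CCR1/2+ve replicate 2 or CCR2+ve replicate 2, 3 or 4, and without CCR1/2+ve replicate 2 its log2 fold change was 1.38. Cd34 was higher below the fold cutoff (0.61 ± 0.18, adjusted p = 0.036), although the adjusted p was 0.059 to 0.11 without CCR1/2+ve replicate 2, 3 or 4 or CCR2+ve replicate 1, 3 or 4. The adjusted p of Kit was 0.11 with no filter on low counts, and those of Hoxa7 and Cd34 were 0.055 and 0.20 in the fit of 15 libraries.

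Genes of MHC class II presentation were lower in CCR1/2+ve monocytes. Of 16 tested 5 were downregulated, 9 were lower at an adjusted p below 0.05 and 1, H2-DMb2, was higher, with a median log2 fold change of -0.80. Cd74, the invariant chain that guides class II molecules through the cell, was at 347, 141, 138 and 174 CPM in CCR1/2+ve and 1841, 651, 669 and 1235 CPM in CCR2+ve libraries (-2.46 ± 0.45, adjusted p = 0.0081). H2-Ab1, a class II beta chain, was at 95.5, 33.2, 21.5 and 37.97 CPM in CCR1/2+ve and 467, 135, 115 and 253 CPM in CCR2+ve libraries (-2.36 ± 0.62, adjusted p = 0.038). H2-Aa, its alpha chain partner, was at 48.4, 13.4, 11.8 and 17.9 CPM in CCR1/2+ve and 230.3, 60.0, 53.6 and 125 CPM in CCR2+ve libraries (-2.35 ± 0.65, adjusted p = 0.046). Replicate 1 was the highest library of either population for the 3 genes, and each CCR1/2+ve library lay about 4-fold or more below the CCR2+ve library of its own number. With replicate numbers kept as a block, 6 of the 16 genes were downregulated and Cd74 had an adjusted p of 9.9e-11. Neither chain lost its adjusted p below 0.05 with the block. In the fits with 1 library left out, which had no block, the calls of both chains were often lost. For H2-Ab1 the adjusted p was 0.055 to 0.13 without CCR1/2+ve replicate 2, 3 or 4 or CCR2+ve replicate 1 or 4. For H2-Aa the adjusted p was 0.056 to 0.14 without CCR1/2+ve replicate 2, 3 or 4 or CCR2+ve replicate 1, 3 or 4. H2-Eb1, the second beta chain, was at 24.9, 7.94, 5.35 and 12.7 CPM in CCR1/2+ve and 129, 25.8, 23.1 and 69.5 CPM in CCR2+ve libraries and did not pass (-2.27 ± 0.71, adjusted p = 0.069), but was called with the replicate block (adjusted p = 2.6e-09). Ciita, the master activator of class II genes, was at 2.44, 1.99, 0.431 and 0.746 CPM in CCR1/2+ve and 15.4, 4.77, 3.45 and 3.79 CPM in CCR2+ve libraries (-2.28 ± 0.61, adjusted p = 0.026). For Ciita the adjusted p was 0.059 to 0.074 without CCR1/2+ve replicate 2 or 4 or CCR2+ve replicate 1. The log2 fold change of Ciita without CCR2+ve replicate 1 was -1.49. With no filter on low counts the adjusted p was 0.088 for H2-Ab1, 0.10 for H2-Aa and 0.11 for Ciita, and for H2-Ab1 it was 0.054 in the fit of 15 libraries. Cd40, a costimulatory receptor, was downregulated with less spread, at 15.02, 9.54, 13.5 and 11.4 CPM in CCR1/2+ve and 44.5, 24.2, 28.1 and 32.6 CPM in CCR2+ve libraries (-1.39 ± 0.19, adjusted p = 0.00039). The peptide-loading genes H2-DMa (-0.41 ± 0.07, adjusted p = 0.0021) and H2-DMb1 (-0.42 ± 0.08, adjusted p = 0.0039) and the protease gene Ctss (-0.79 ± 0.12, adjusted p = 0.00090) were lower by less than the fold cutoff. For H2-DMb2 the log2 fold change was 0.55 ± 0.15, adjusted p = 0.026. For H2-DMb2 the adjusted p was 0.059 to 0.088 without CCR1/2+ve replicate 1, 2 or 4 or CCR2+ve replicate 1, 3 or 4. The costimulatory gene Cd86 gave an adjusted p of 0.47.

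The dendritic cell markers that passed were lower too. Of 20 tested 8 were downregulated, 10 were lower at an adjusted p below 0.05 and none was higher, and they summed to 153 to 206 CPM in CCR1/2+ve and 355 to 519 CPM in CCR2+ve libraries. Cd209a, a lectin of monocyte-derived dendritic cells, was at 30.3, 11.7, 6.90 and 10.3 CPM in CCR1/2+ve and 149, 70.7, 73.4 and 86.2 CPM in CCR2+ve libraries (-2.67 ± 0.48, adjusted p = 0.0073). Dpp4, a peptidase of the cell surface, was at 23.5, 16.9, 18.4 and 23.1 CPM in CCR1/2+ve and 76.6, 56.5, 52.6 and 71.4 CPM in CCR2+ve libraries (-1.65 ± 0.14, adjusted p = 4.7e-05). Kmo, an enzyme of tryptophan breakdown, was downregulated with it (-1.42 ± 0.22, adjusted p = 0.00082). No CCR1/2+ve library reached the lowest CCR2+ve library for these genes. Xcr1, another of the markers, was low in both populations, at 0.638, 0.958, 0.776 and 0.814 CPM in CCR1/2+ve and 0.916, 0.892, 0.985 and 1.18 CPM in CCR2+ve libraries, which did not pass (adjusted p = 0.57). A mean above 10 CPM was reached by 6 of the 20 markers in CCR1/2+ve and by 7 in CCR2+ve libraries. The part of dendritic cells in the class II differences was not tested. Mgl2, a lectin of the same marker list, was at 18.8, 44.3, 15.4 and 9.70 CPM in CCR1/2+ve and 6.89, 14.5, 8.29 and 4.05 CPM in CCR2+ve libraries, which did not pass (1.38 ± 0.53, adjusted p = 0.12) and was called higher with the replicate block (adjusted p = 1.9e-06). None of the 20 markers was at 0 in all 8 libraries.

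**Figure D3:**
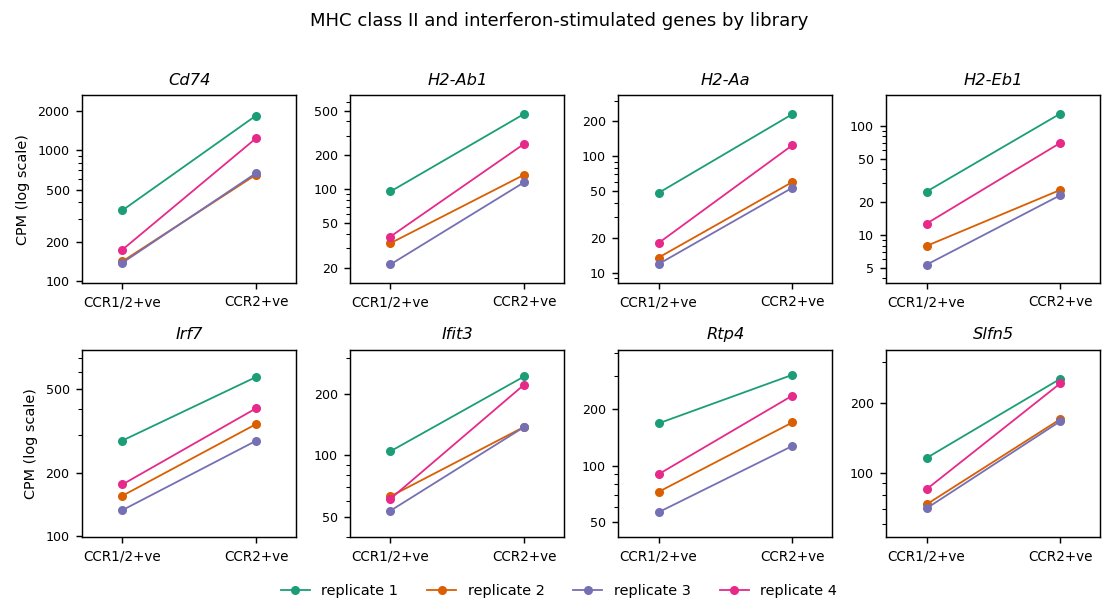
Levels of MHC class II genes and interferon-stimulated genes (CPM, log axis, 1 panel a gene) in the 8 resting libraries, with 1 point for each library and lines between libraries of equal replicate number. Every line rises from the CCR1/2+ve to the CCR2+ve library, and replicate 1 is the highest library of each population in all 8 panels.

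Interferon-stimulated genes were lower in CCR1/2+ve monocytes. All 39 tested type I interferon-stimulated genes had a log2 fold change below 0, 9 were downregulated past both cutoffs and 29 were lower at an adjusted p below 0.05, with a median log2 fold change of -0.82. Slfn5, a schlafen family gene, was at 116, 73.1, 70.2 and 84.9 CPM in CCR1/2+ve and 255, 171, 167 and 243 CPM in CCR2+ve libraries (-1.28 ± 0.18, adjusted p = 0.00058). Ifit2, which binds viral RNA, was at 117, 65.6, 71.5 and 77.6 CPM in CCR1/2+ve and 271, 151, 154 and 237 CPM in CCR2+ve libraries (-1.29 ± 0.23, adjusted p = 0.0042). Rsad2, viperin, was at 48.6, 23.8, 23.2 and 28.5 CPM in CCR1/2+ve and 109.8, 55.1, 59.3 and 89.8 CPM in CCR2+ve libraries (-1.34 ± 0.30, adjusted p = 0.015). The populations did not overlap for these genes, and replicate 1 was again the highest library of each. For Rsad2 the adjusted p was 0.056 without CCR1/2+ve replicate 2. Ifit1 (-1.30 ± 0.27, adjusted p = 0.0093) and Ifit3 (-1.39 ± 0.26, adjusted p = 0.0063) were downregulated as well, as was Ifit3b (-1.42 ± 0.25, adjusted p = 0.0031), whose reads may be split with its near copy Ifit3. Below the fold cutoff lay the RNA sensor gene Ifih1 (-0.97 ± 0.14, adjusted p = 0.00063), Samd9l (-0.66 ± 0.12, adjusted p = 0.0022), Ifi204 (-0.82 ± 0.15, adjusted p = 0.0026) and the nuclease gene Isg20 (-0.92 ± 0.17, adjusted p = 0.0027). Rtp4 and Ifi44 did not pass (-1.12 ± 0.39, adjusted p = 0.096 and -1.29 ± 0.41, adjusted p = 0.058) and were called with the replicate block (adjusted p = 1.8e-08 and 3.6e-06). Irf7, the factor that amplifies type I interferon, was downregulated (-1.09 ± 0.28, adjusted p = 0.026). For Irf7 the adjusted p was 0.056 to 0.093 without CCR1/2+ve replicate 2 or 4 or CCR2+ve replicate 4 and the log2 fold change was -0.86 to -0.96 without CCR1/2+ve replicate 3 or CCR2+ve replicate 1. With no filter on low counts Irf7 and Rsad2 did not pass (adjusted p = 0.092 and 0.061), and in the fit of 15 libraries Ifit2, Ifit3 and Ifit3b did not (0.073, 0.050 and 0.054). Oas1g and Oas2, which make the activator of RNase L, did not pass (adjusted p = 0.63 and 0.60).

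The interferon-inducible GTPases, which guard against intracellular pathogens, had the same direction. All 19 tested lay below 0, 5 were downregulated and 13 were lower at an adjusted p below 0.05, with a median log2 fold change of -0.91. Irgm1 was at 157, 102, 90.4 and 124 CPM in CCR1/2+ve and 303, 211, 198 and 273 CPM in CCR2+ve libraries (-1.06 ± 0.17, adjusted p = 0.0015). Igtp, also called Irgm3, was at 75.2, 59.0, 58.2 and 60.9 CPM in CCR1/2+ve and 133, 106, 93.6 and 136 CPM in CCR2+ve libraries (-0.89 ± 0.13, adjusted p = 0.00051). Each CCR1/2+ve library of these 2 genes lay below the CCR2+ve library of its number, as did Irgm2 (-0.91 ± 0.13, adjusted p = 0.00063) and the downregulated Tgtp2 (-1.36 ± 0.25, adjusted p = 0.0035), whose reads may be split with its near copy Tgtp1. For Irgm1, the log2 fold change was -0.93 to -0.99 without CCR1/2+ve replicate 2 or 3 or CCR2+ve replicate 1. Igtp and Tgtp2 did not pass in the fit of 15 libraries (adjusted p = 0.087 and 0.27).

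Interferon response elements (ISRE, TTTC followed by any 2 bases and TTTC, on either strand) were looked for in the same promoter windows. Of 33 windows of 28 tested type I genes 54.5% held the element, against 3.44% of all windows and 6.67% of the windows of the mitosis genes, and the interferon-gamma element (GAS, TTCNNNGAA) was in 18.2% against 8.3%. Of the tested members with a match, those with the smallest p are shown with the match in capitals, Slfn5 (GRCm38.p6 chr11:82951852-82952151, plus strand) and Ifih1 (chr2:62646206-62646505, minus strand).
Slfn5: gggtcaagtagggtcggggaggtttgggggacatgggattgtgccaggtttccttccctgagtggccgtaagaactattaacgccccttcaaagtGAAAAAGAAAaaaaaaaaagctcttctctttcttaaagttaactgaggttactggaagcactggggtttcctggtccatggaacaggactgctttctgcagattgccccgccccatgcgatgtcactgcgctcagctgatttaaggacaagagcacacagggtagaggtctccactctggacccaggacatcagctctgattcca
Ifih1: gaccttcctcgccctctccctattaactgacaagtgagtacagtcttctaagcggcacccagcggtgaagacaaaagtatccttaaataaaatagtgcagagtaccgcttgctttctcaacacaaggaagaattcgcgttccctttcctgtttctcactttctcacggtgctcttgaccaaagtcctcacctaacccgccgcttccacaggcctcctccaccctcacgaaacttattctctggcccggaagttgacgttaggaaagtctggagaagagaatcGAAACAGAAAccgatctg
The match of Slfn5 began 155 bases before and that of Ifih1 32 bases after the start of transcription. As for the cell cycle motifs, a match is a description and not a bound site. For the 11 windows of 10 primary granule genes the C/EBP motif searched (TTGCGCAA) was in 1, that of Clec12a, and in 0.183% of all windows.

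Receptors for growth factors and interferons were lower without exception among those that passed. Of 20 tested 2 were downregulated, 12 were lower at an adjusted p below 0.05 and none was higher, with a median log2 fold change of -0.46. Tgfbr2, a receptor for TGF-beta, was at 14.2, 7.91, 14.5 and 13.4 CPM in CCR1/2+ve and 41.8, 28.1, 46.3 and 42.0 CPM in CCR2+ve libraries (-1.66 ± 0.19, adjusted p = 0.00015). Il13ra1, a receptor chain for IL-13 and IL-4, was at 97.2, 78.6, 98.4 and 102 CPM in CCR1/2+ve and 211, 176, 185 and 236 CPM in CCR2+ve libraries (-1.10 ± 0.11, adjusted p = 7.4e-05). Csf1r, the receptor for M-CSF that mononuclear phagocytes need, was at 489, 371, 531.5 and 437 CPM in CCR1/2+ve and 1016, 735, 908 and 913 CPM in CCR2+ve libraries (-0.97 ± 0.12, adjusted p = 0.00025), just short of the fold cutoff. The 3 genes showed no overlap, and Il10ra (-0.87 ± 0.10, adjusted p = 0.00016), Tnfrsf1b (-0.71 ± 0.11, adjusted p = 0.00074) and Il17ra (-0.60 ± 0.09, adjusted p = 0.00069) were lower in the same way. Both interferon-gamma receptor chains, Ifngr1 (-0.52 ± 0.11, adjusted p = 0.0049) and Ifngr2 (-0.48 ± 0.09, adjusted p = 0.0039), and the type I chain Ifnar1 (-0.45 ± 0.09, adjusted p = 0.0039) were lower by smaller margins, and Ifnar2 did not pass (-0.23 ± 0.08, adjusted p = 0.066). In the fit of 15 libraries Ifnar1 did not pass either (adjusted p = 0.28).

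Genes that mark patrolling, Ly6C-low monocytes and those that mark Ly6C-high monocytes were looked at side by side. Of 17 tested Ly6C-low genes 6 were downregulated, 9 were lower and 2 higher at an adjusted p below 0.05, with a median log2 fold change of -0.97. Treml4 was at 20.7, 15.5, 15.6 and 13.7 CPM in CCR1/2+ve and 47.2, 29.8, 31.9 and 37.7 CPM in CCR2+ve libraries (-1.17 ± 0.16, adjusted p = 0.00041). Cd36, a scavenger receptor for lipids, was at 3.57, 2.59, 2.59 and 4.78 CPM in CCR1/2+ve and 8.03, 11.5, 6.81 and 13.9 CPM in CCR2+ve libraries (-1.57 ± 0.27, adjusted p = 0.0016). Cx3cr1, the fractalkine receptor, was downregulated with them (-1.40 ± 0.19, adjusted p = 0.00043). The 2 that were higher were Spn, which encodes CD43 (0.34 ± 0.09, adjusted p = 0.024), and the tetraspanin gene Cd9 (0.72 ± 0.20, adjusted p = 0.023). For Spn the adjusted p was 0.054 to 0.072 without CCR1/2+ve replicate 3 or 4 or CCR2+ve replicate 3 or 4, and 0.11 in the fit of 15 libraries. For Cd9 the adjusted p was 0.059 to 0.074 without CCR1/2+ve replicate 3 or 4 or CCR2+ve replicate 1 or 4. Of 18 tested Ly6C-high genes 1 was downregulated and 7 were lower, among them Clec4a1 (-1.06 ± 0.13, adjusted p = 0.00018) and the fibronectin gene Fn1 (-0.60 ± 0.15, adjusted p = 0.017), and 11 did not pass. For Clec4a1 the log2 fold change was -0.98 to -0.996 without CCR1/2+ve replicate 2 or CCR2+ve replicate 4. Chil3, a chitinase-like gene of the same list, differed between replicate numbers by more than between the populations and did not pass (0.58 ± 0.35, adjusted p = 0.32), although each CCR1/2+ve library exceeded the CCR2+ve library of its number. With the replicate block its log2 fold change was 0.62 with an adjusted p of 2.2e-07.

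**Figure D4:**
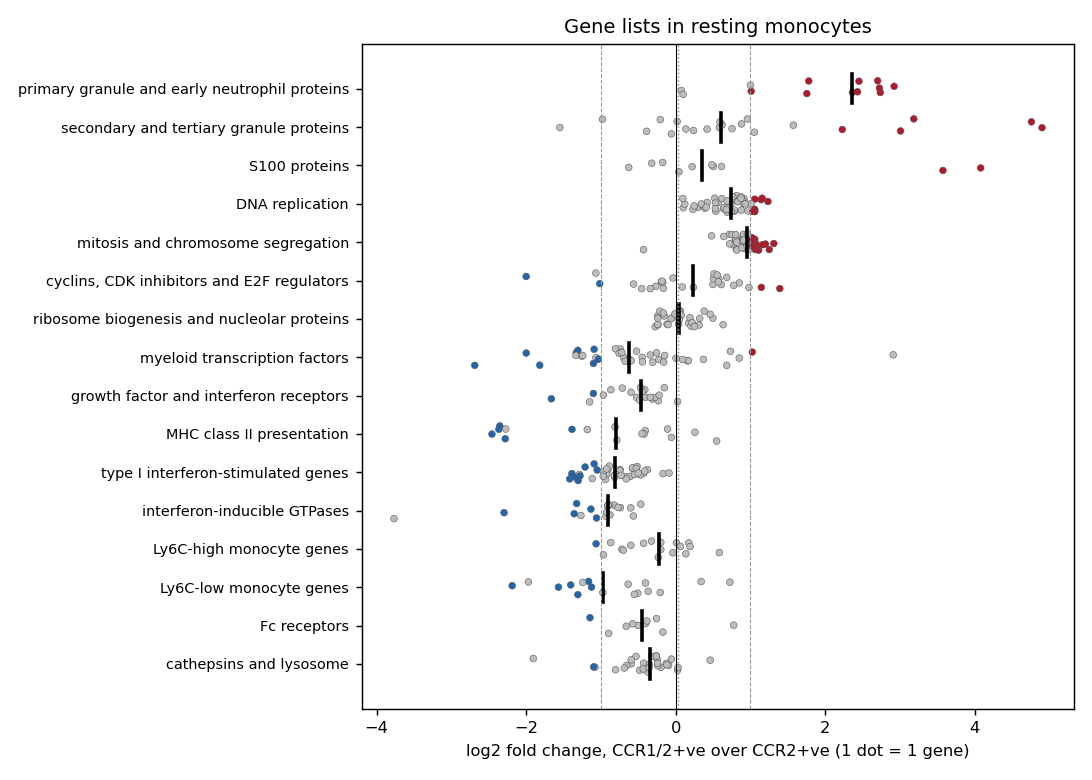
Log2 fold change of CCR1/2+ve over CCR2+ve resting monocytes (x axis) for the tested members of the gene lists named at the left, with 1 dot a gene, genes past both cutoffs in red (higher) or blue (lower), black marks at the medians, dashed lines at the fold cutoff and a dotted line at the median of all genes tested. The medians of primary granule, DNA replication and mitosis genes lie to the right of 0, and those of interferon, MHC class II and Ly6C-low monocyte genes to the left.

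The Fc receptor and lysosome genes that passed were lower, with 1 exception. Of 10 tested Fc receptor genes 1 was downregulated and 4 were lower at an adjusted p below 0.05, with Fcgrt, the neonatal receptor that recycles antibody, at 69.3, 77.3, 94.1 and 94.6 CPM in CCR1/2+ve and 141, 136, 162 and 185 CPM in CCR2+ve libraries (-0.90 ± 0.12, adjusted p = 0.00037), without overlap. Fcgr1, the high-affinity receptor for IgG, was the one called (-1.15 ± 0.19, adjusted p = 0.0014). For Fcgr1 the log2 fold change was -0.97 without CCR2+ve replicate 1. Of 29 tested cathepsin and lysosome genes 1 was downregulated, 13 were lower and 1 was higher. Lgmn, the protease legumain, was at 98.7, 66.0, 93.2 and 87.1 CPM in CCR1/2+ve and 207, 138, 192 and 201 CPM in CCR2+ve libraries (-1.10 ± 0.14, adjusted p = 0.00028). For Lgmn the log2 fold change was -0.99 without CCR1/2+ve replicate 2. Cd68, a glycoprotein of the lysosome membrane (-0.60 ± 0.11, adjusted p = 0.0023), and Psap, the precursor of the saposins that aid lipid breakdown (-0.48 ± 0.10, adjusted p = 0.0043), were lower below the fold cutoff. The member that was higher was Gla, alpha-galactosidase A (0.46 ± 0.11, adjusted p = 0.012). Glycolysis genes, with 3 higher, 2 lower and 17 of 22 that did not pass, and genes of NADPH oxidase and peroxide handling, with 3 higher, 3 lower and 14 of 20 that did not pass, had medians of 0.00 and 0.06.

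Chemokine ligands were lower where they changed. Of 22 tested 3 were downregulated, 6 were lower and none was higher at an adjusted p below 0.05. Ccl5 was at 5.03, 2.66, 1.38 and 3.66 CPM in CCR1/2+ve and 15.3, 7.06, 7.18 and 12.1 CPM in CCR2+ve libraries (-1.70 ± 0.35, adjusted p = 0.0055). Cxcl16, the membrane-bound ligand of CXCR6, was at 1.31, 1.13, 0.906 and 0.644 CPM in CCR1/2+ve and 5.80, 2.52, 2.13 and 4.09 CPM in CCR2+ve libraries (-1.86 ± 0.36, adjusted p = 0.0038). No CCR1/2+ve library of Ccl5 or Cxcl16 reached a CCR2+ve library. The abundant Ccl6 (-0.60 ± 0.14, adjusted p = 0.010) and Ccl9 (-0.62 ± 0.13, adjusted p = 0.0049), ligands of CCR1, and the interferon-induced Cxcl10 (-0.95 ± 0.24, adjusted p = 0.016) were lower by less. For Cxcl10 the adjusted p was 0.052 to 0.061 without CCR1/2+ve replicate 2 or CCR2+ve replicate 1 or 4, and 0.051 with no filter on low counts.

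Adhesion molecules went both ways, with 3 upregulated and 3 downregulated of 30 tested. Ncam1, neural cell adhesion molecule 1, was at 156, 152, 118 and 123 CPM in CCR1/2+ve and 54.6, 48.4, 35.4 and 33.1 CPM in CCR2+ve libraries (1.68 ± 0.16, adjusted p = 6.1e-05). Icam1, a ligand of beta-2 integrins, was at 26.5, 18.3, 22.2 and 23.5 CPM in CCR1/2+ve and 59.3, 38.4, 50.3 and 44.8 CPM in CCR2+ve libraries (-1.09 ± 0.14, adjusted p = 0.00030). The libraries of Ncam1 and Icam1 did not overlap. For Icam1 the log2 fold change was -0.97 without CCR2+ve replicate 1. Itga4, an integrin chain that binds VCAM1, was lower below the fold cutoff (-0.53 ± 0.08, adjusted p = 0.00083).

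Genes of tissue macrophages split into 2 groups of opposite direction. Of 20 tested 8 were upregulated and 4 were downregulated, and 8 were higher and 7 lower at an adjusted p below 0.05. Vcam1, an adhesion molecule of marrow macrophages, was at 54.0, 30.6, 18.9 and 15.4 CPM in CCR1/2+ve and 1.22, 0.776, 1.72 and 3.44 CPM in CCR2+ve libraries (4.06 ± 0.54, adjusted p = 0.0013). Slc40a1, the iron exporter ferroportin, was at 36.4, 19.4, 9.10 and 11.6 CPM in CCR1/2+ve and 2.14, 0.970, 1.03 and 3.31 CPM in CCR2+ve libraries (3.37 ± 0.55, adjusted p = 0.0031). C1qa, a chain of complement C1q, was at 11.04, 5.18, 4.27 and 3.56 CPM in CCR1/2+ve and 1.61, 0.698, 0.862 and 1.04 CPM in CCR2+ve libraries (2.51 ± 0.39, adjusted p = 0.00092), with C1qb (1.73 ± 0.40, adjusted p = 0.012) and C1qc (2.30 ± 0.44, adjusted p = 0.0041) beside it. These genes were highest in CCR1/2+ve replicate 1 and lay above every CCR2+ve library. Cd5l, a secreted macrophage protein, was at 4.36, 2.55, 2.16 and 3.05 CPM in CCR1/2+ve and 0.436, 0.310, 0.369 and 0.348 CPM in CCR2+ve libraries (3.04 ± 0.33, adjusted p = 0.00011). Fcna, ficolin A, was at 15.2, 8.51, 7.29 and 5.05 CPM in CCR1/2+ve and 1.09, 1.24, 1.64 and 1.87 CPM in CCR2+ve libraries (2.62 ± 0.33, adjusted p = 0.00025). In the other direction, Apoe, apolipoprotein E, was at 537, 467, 834 and 619 CPM in CCR1/2+ve and 1330.5, 1182.5, 2028 and 2097 CPM in CCR2+ve libraries (-1.43 ± 0.22, adjusted p = 0.0012). Axl, a receptor for dying cells, was downregulated as well (-1.28 ± 0.29, adjusted p = 0.011). Calls of C1qb and Axl were lost with no filter on low counts (adjusted p = 0.066 and 0.064). Adgre1, an adhesion receptor of macrophages, was lower below the fold cutoff (-0.70 ± 0.12, adjusted p = 0.0016). Macrophage genes summed to 828 to 1259 CPM in CCR1/2+ve and 1608 to 2666 CPM in CCR2+ve libraries, a sum of which Apoe was the largest part in every library. The part of macrophage RNA in these differences was not tested.

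Complement genes beyond C1q were also divided. Of 22 tested 4 were upregulated, the 3 C1q chains and Cd55, and 2 were downregulated. Cd55, which protects cells from complement, was at 0.413, 0.887, 0.129 and 0.475 CPM in CCR1/2+ve and 0.0873, 0, 0.0410 and 0 CPM in CCR2+ve libraries, so that the CCR2+ve libraries lay under the floor. For Cd55 the adjusted p was 0.058 without CCR1/2+ve replicate 2. C3ar1, the receptor for C3a, was at 2.85, 1.60, 1.12 and 1.02 CPM in CCR1/2+ve and 8.64, 6.52, 7.18 and 8.10 CPM in CCR2+ve libraries (-2.20 ± 0.30, adjusted p = 0.00037). Every CCR1/2+ve library lay below every CCR2+ve library. Cfp, properdin, was higher by less than the cutoff (0.35 ± 0.09, adjusted p = 0.016).

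Markers of lymphoid, erythroid and other cells are given for their whole lists. Of 14 T and NK cell markers 4 were downregulated and the only one upregulated was Nkg7, a granule membrane gene, at 60.4, 92.9, 32.7 and 34.1 CPM in CCR1/2+ve and 8.59, 13.7, 6.48 and 7.01 CPM in CCR2+ve libraries (2.62 ± 0.40, adjusted p = 0.0025), while the T cell receptor genes Cd3e, Cd3d and Cd3g stayed below 1 CPM in every library and did not pass. Lck, a kinase of T cells, was downregulated at low level (-2.66 ± 0.61, adjusted p = 0.0099), as were Ncr1, Klrb1c and Cd2, each below 2 CPM in every library. For these 3 the calls were not kept in every fit with 1 library left out. For Ncr1 the adjusted p was 0.061 without CCR2+ve replicate 3, and no CCR1/2+ve library but replicate 3 held a read of it. For Klrb1c the adjusted p was 0.051 to 0.14 without CCR1/2+ve replicate 1, 2 or 4 or CCR2+ve replicate 1, 3 or 4. For Cd2 the adjusted p was 0.055 to 0.14 without CCR1/2+ve replicate 2 or 4 or CCR2+ve replicate 1, 2 or 4. None of 13 erythroid and 8 megakaryocyte markers was called, and the erythroid markers summed to 80.8 to 222 CPM in CCR1/2+ve and 117 to 328 CPM in CCR2+ve libraries. Tfrc, the transferrin receptor, passed without reaching the fold limit (0.89 ± 0.23, adjusted p = 0.020). For Tfrc the adjusted p was 0.064 to 0.072 without CCR1/2+ve replicate 2 or CCR2+ve replicate 1, 3 or 4. The 13 B cell markers summed to 691 to 793 CPM in CCR1/2+ve and 827 to 1101 CPM in CCR2+ve libraries. Ighm, the mu heavy chain, was lower in CCR1/2+ve monocytes (-0.38 ± 0.10, adjusted p = 0.016), as was Cd79b (-0.35 ± 0.10, adjusted p = 0.031), both short of the fold limit. For Cd79b the adjusted p was 0.073 to 0.094 without CCR1/2+ve replicate 1 or 4 or CCR2+ve replicate 3 or 4. Cd79a was upregulated (1.12 ± 0.30, adjusted p = 0.022). For Cd79a the adjusted p was 0.064 to 0.070 without CCR1/2+ve replicate 1 or CCR2+ve replicate 3 or 4. Of 8 basophil and mast cell markers Kit and Hdc were upregulated, with Hdc, histidine decarboxylase, at 11.4, 25.0, 12.1 and 7.42 CPM in CCR1/2+ve and 4.10, 7.53, 5.83 and 3.48 CPM in CCR2+ve libraries (1.41 ± 0.35, adjusted p = 0.016). For Hdc the adjusted p was 0.057 to 0.061 without CCR2+ve replicate 1 or 4 and the log2 fold change was 0.97 without CCR1/2+ve replicate 2. With no filter on low counts the adjusted p of Hdc was 0.074, and in the fit of 15 libraries the adjusted p was 0.087 for Klrb1c, 0.13 for Tfrc, 0.18 for Ighm and 0.19 for Cd79b. Of 5 tested eosinophil markers Ccr3 and Siglecf were upregulated, and the 6 markers in the table, of which 1 had 0 reads in all 8 libraries, summed to 3.62 to 6.05 CPM in CCR1/2+ve and 0.871 to 1.78 CPM in CCR2+ve libraries. The part of eosinophils in the Ccr3 difference was not tested.

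Outside the lists, the strongest named differences were spread over many functions. A gene was named here only where the libraries did not overlap, so the lack of overlap below was set by that choice. Clec4b2, a C-type lectin, was at 4.51, 12.9, 7.72 and 7.87 CPM in CCR1/2+ve and 0.175, 0.970, 0.205 and 0.522 CPM in CCR2+ve libraries (4.11 ± 0.47, adjusted p = 0.00013). Cldn15, a claudin of tight junctions, was at 50.1, 63.2, 50.2 and 59.0 CPM in CCR1/2+ve and 17.1, 19.8, 24.9 and 20.7 CPM in CCR2+ve libraries (1.43 ± 0.12, adjusted p = 4.1e-05). Cbx5, the heterochromatin protein HP1 alpha (1.14 ± 0.09, adjusted p = 2.2e-05), and Aspm, a spindle protein (1.01 ± 0.08, adjusted p = 3.4e-05), were upregulated. For Aspm the log2 fold change was 0.95 to 0.99 without CCR1/2+ve replicate 4 or CCR2+ve replicate 4. Downward, Slamf8 (-1.86 ± 0.14, adjusted p = 1.6e-05) and Slamf7 (-2.56 ± 0.48, adjusted p = 0.0063) belong to the SLAM family of immune receptors, with Slamf7 at 7.02, 2.94, 2.24 and 2.34 CPM in CCR1/2+ve and 36.1, 12.3, 12.8 and 24.7 CPM in CCR2+ve libraries. Tmem176b was at 60.0, 44.4, 57.1 and 40.0 CPM in CCR1/2+ve and 204, 135, 158 and 155 CPM in CCR2+ve libraries (-1.70 ± 0.15, adjusted p = 4.7e-05), and its neighbour Tmem176a, whose exons partly overlap it, moved alike (-1.47 ± 0.12, adjusted p = 3.4e-05). All CCR2+ve libraries of these genes lay above all CCR1/2+ve libraries. Dusp6, a phosphatase of ERK kinases (-1.28 ± 0.11, adjusted p = 3.9e-05), Atf3, a stress-induced factor (-1.46 ± 0.13, adjusted p = 5.6e-05), Ypel3 (-1.59 ± 0.12, adjusted p = 2.3e-05), Abca9, a transporter (-1.16 ± 0.10, adjusted p = 3.9e-05), Tspan13, a tetraspanin (-1.60 ± 0.15, adjusted p = 6.6e-05), and Smpdl3b, a sphingomyelinase-like membrane protein (-1.51 ± 0.14, adjusted p = 6.2e-05), were downregulated without overlap. Low in level but far apart were Arhgef10, at 1.39, 0.496, 0.173 and 1.29 CPM in CCR1/2+ve and 6.98, 5.47, 5.95 and 9.23 CPM in CCR2+ve libraries (-3.02 ± 0.44, adjusted p = 0.00059), and Rasgef1b, an exchange factor of Ras-like GTPases (-2.24 ± 0.26, adjusted p = 0.00014). Eif3b, a subunit of translation initiation factor 3, was at 79.2, 90.0, 69.0 and 95.2 CPM in CCR1/2+ve and 169, 219, 228 and 261 CPM in CCR2+ve libraries (-1.40 ± 0.13, adjusted p = 6.2e-05).

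The resting difference was then set beside that of the inflamed populations, 3 CCR1/2+ve and 4 CCR2+ve libraries from mice of the same allele that had carried pumps infusing IL-3, IL-6, GM-CSF and IFN-alpha for a week. At the same cutoffs the inflamed populations differed at 19 genes upward and 8 downward, 0.102% and 0.0429% of those tested. That fit held 3 against 4 libraries, without a block, where the resting fit held 4 against 4. Its counts, and those of genes called again, are therefore not directly comparable with the counts at rest. The study, which used DESeq2, reported more genes in each direction for the inflamed populations. Of the 437 genes upregulated at rest, 329 had the same sign in inflammation, with a median log2 fold change of 1.38 at rest and 0.41 in inflammation, and 12 were called again. Of the 355 downregulated, 310 had the same sign, with medians of -1.42 and -0.48, and 6 were called again. No gene was called in opposite directions. Since the genes were chosen by their resting values, smaller values in a second set of libraries are partly given by that choice.

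A test of the difference itself, the interaction of population and inflammation, passed for 74 genes, 0.397% of those tested, of which 16 were upregulated and 15 downregulated at rest, and all 31 had a smaller or opposite difference in inflammation. The 31 genes were chosen by cutoffs on the resting libraries, which also enter this test. Their common direction is therefore partly given by that choice. The count of 74 moved with single libraries, from 0 without inflamed CCR1/2+ve replicate 3, where 1827 genes had an unadjusted p below 0.05, to 253 without inflamed CCR2+ve replicate 4. It was 5 without resting CCR1/2+ve replicate 2, 7 without inflamed CCR2+ve replicate 1, 9 without resting CCR2+ve replicate 3, 30 without inflamed CCR2+ve replicate 2, 32 without resting CCR2+ve replicate 4, 38 without resting CCR1/2+ve replicate 3, 46 without resting CCR1/2+ve replicate 4, 48 without resting CCR2+ve replicate 1 and 209 without resting CCR2+ve replicate 2. It was 470 with the replicate block and 534 by DESeq2, so the genes named here are those of a test that depends on the libraries used.

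Among the upregulated genes that passed were several macrophage genes. Fcna had a log2 fold change of 2.62 at rest and of -0.49 ± 0.27 in inflammation (interaction adjusted p = 0.017). C1qa (2.51 and -0.74 ± 0.40, adjusted p = 0.027), C1qb (1.73 and -1.08 ± 0.28, adjusted p = 0.046) and C1qc (2.30 and -0.82 ± 0.36, adjusted p = 0.045) fell below 0 likewise, as did Ccr3 (3.44 and -0.99 ± 0.67, adjusted p = 0.045). The inflamed values of these genes were below 0 with adjusted p-values of 0.19 to 0.70, none past the threshold. Among downregulated genes, Irf4 went from -2.69 to -1.251 ± 0.20 (interaction adjusted p = 0.027), Tgfbr2 from -1.66 to -0.24 ± 0.17 (adjusted p = 0.032), C3ar1 from -2.20 to -0.29 ± 0.18 (adjusted p = 0.027) and Eif3b from -1.40 to -0.09 ± 0.17 (adjusted p = 0.027).

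By list, the median log2 fold change was 0.76 in inflammation against 2.36 at rest for the primary granule genes, 0.40 against 0.96 for mitosis, 0.31 against 0.74 for DNA replication, -0.04 against -0.82 for the type I interferon-stimulated genes and -0.25 against -0.80 for MHC class II, beside -0.03 against 0.03 over all genes tested. No gene of the primary granule, mitosis, replication or class II lists passed the interaction test, and among the type I genes Isg20 did (adjusted p = 0.027). Cldn15, at 1.43 at rest and 1.54 ± 0.20 in inflammation (interaction adjusted p = 0.90), and Ncam1, at 1.68 and 1.99 ± 0.18 (adjusted p = 0.67), had values at least as large in inflammation. S100a9 was at 4.08 and 2.85 ± 0.39 (interaction adjusted p = 0.20).

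**Figure D5:**
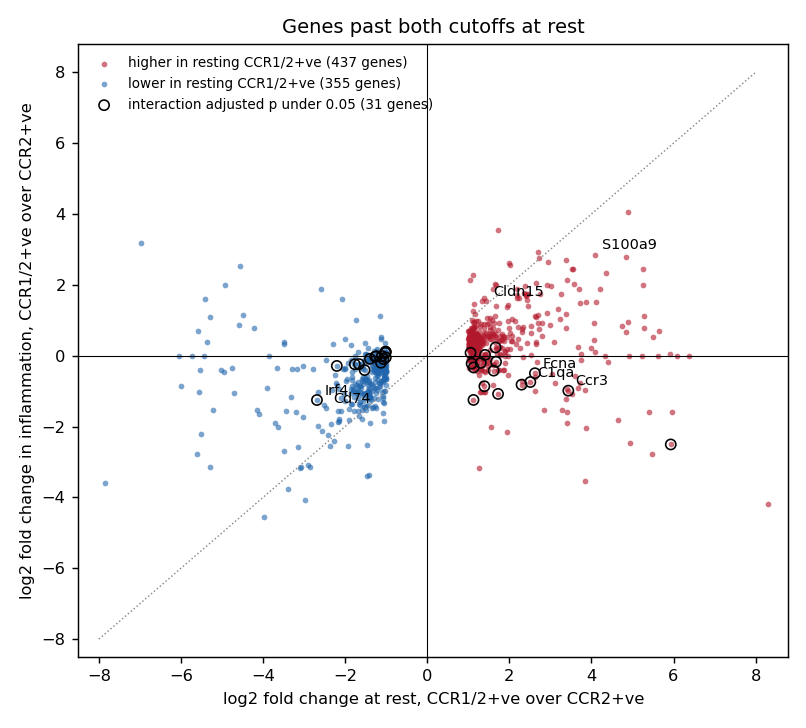
Log2 fold change of CCR1/2+ve over CCR2+ve monocytes at rest (x axis) and in inflammation (y axis) for the 792 genes past both cutoffs at rest, in red (higher at rest) or blue (lower at rest), with rings around those that passed the interaction test and a dotted line where both changes would be equal. S100a9 and Cldn15 lie above 0 on both axes, while Fcna, C1qa and Ccr3 lie below 0 in inflammation.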

How the data were processed

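Bulk RNA-seq was run on sorted marrow monocytes, and the authors deposited 1 table of raw read counts per gene. The authors aligned reads to GRCm38 with Ensembl annotation and counted uniquely mapped reads with STAR 2.7.10a; the strand setting is not given in the sources used here. Libraries were matched to their labels by column name, and 1 column matched no sample and was not used. The 8 resting libraries held 23274596 to 30502009 reads on genes. Replicates of 1 population differed by more than counting noise (chi-square per degree of freedom 11.09 to 34.44), so none was counted as a duplicate.

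Of 50854 genes, 18652 that averaged 1 read or more in the 19 mapped libraries were tested with edgeR 4.0.16 (TMM, robust quasi-likelihood F test, two-sided, R 4.3.3), with Benjamini-Hochberg adjustment over all of them. A call needed an adjusted p under 0.05 and a change of 1 or more on the log2 scale, as in the study, which used DESeq2. CPM were computed from the deposited counts with TMM factors of the resting libraries. The inflamed CCR1/2+ve (n = 3) and CCR2+ve (n = 4) libraries entered an interaction test. On simulated counts for the 18652 genes, the resting test recovered 100% of genes changed by 1.5 or 2.5 on the log2 scale, with 3.85% false calls, and the interaction test recovered 90% and 100%, with 5.47% false calls. The changed genes were drawn only from those above 5 CPM, so recovery at lower levels was not tested. The simulated counts held no effect of replicate number, unlike the data. Alternatives were DESeq2 1.42.0, other normalization and filters, a fit of 15 libraries, a replicate block, and each library left out. The fits with 1 library left out had no block, so the spread between replicate numbers counted as error in them.

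Replicate numbers were checked over 8886 genes of at least 5 CPM. Deviations from the group means correlated at 0.579, 0.494, 0.413 and 0.321 between libraries of the same number, and at -0.396 to 0.229 otherwise. The pairing rests on these correlations alone.

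The genes named were, in each direction, the 12 with the smallest p and the 10 with the largest fold change (protein-coding, both cutoffs, no overlap, the latter at 5 CPM or more), up to 6 members of each list with the smallest p, and the receptor and sort genes; further genes were chosen after their values were seen. Gene lists and members were chosen with earlier results of these data known. Gene models were those of GENCODE M21 (GRCm38), matched for 50744 genes, and promoters those of RefSeq. Genes of chromosome 14 and many of chromosomes 15 to 19 were not analysed here, and some results are not reported here.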

Additional observations from a re-analysis of the deposited data

Results flagged for a closer look

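For 8 of the 158 groups of 4 resting libraries looked at (79 genes in each population), 1 library lay far from the other 3, and chance gives about 1 such group in 20. The measure was the gap between that library and its nearest neighbour, divided by the range of the group, and had to pass Dixon's critical value for 4 samples. CCR1/2+ve replicate 1 was the high library for Cd74 (ratio 0.8291), H2-Aa (0.8328), Igtp (0.8431) and Slamf7 (0.8534), and CCR2+ve replicate 1 was the high library for Ciita (0.8895), the transactivator of MHC class II genes. CCR1/2+ve replicate 2 was the high library for Cenpf (0.8890) and the low one for Tgfbr2 (0.8328), and CCR2+ve replicate 2 was the high library for S100a8 (0.8665).

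For 17 of the 202 genes of the text, the population difference at rest was not that of inflammation, by edgeR's test of the interaction with adjustment over all genes. The log2 fold change at rest and the one in inflammation follow each gene and its interaction p. Of the genes above 0 at rest, the values were C1qa (adjusted p = 0.0273) at 2.51 and -0.74, C1qb (adjusted p = 0.0455) at 1.73 and -1.08, C1qc (adjusted p = 0.0447) at 2.30 and -0.82, Ccnd2 (adjusted p = 0.0498) at 1.39 and -0.86, Ccr3 (adjusted p = 0.0447) at 3.44 and -0.99, Fcna (adjusted p = 0.0173) at 2.62 and -0.49 and Pglyrp1 (adjusted p = 0.0273) at 0.75 and 2.09. Of those below 0 at rest, they were Adgre1 (adjusted p = 0.0497) at -0.70 and 0.11, Btg1 (adjusted p = 0.0237) at -1.02 and 0.11, C3ar1 (adjusted p = 0.0273) at -2.20 and -0.29, Ccl6 (adjusted p = 0.0273) at -0.60 and 0.39, Ccr2 (adjusted p = 0.0478) at -0.87 and -0.03, Clec4a1 (adjusted p = 0.0375) at -1.06 and -0.10, Eif3b (adjusted p = 0.0273) at -1.40 and -0.09, Irf4 (adjusted p = 0.0273) at -2.69 and -1.25, Isg20 (adjusted p = 0.0273) at -0.92 and 0.53 and Tgfbr2 (adjusted p = 0.0324) at -1.66 and -0.24. How many genes pass this test depends on the libraries used, as given above.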

How the results depend on the processing

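The 437 upregulated and 355 downregulated genes became 471 and 368 by DESeq2, 438 and 355 with RLE size factors, 438 and 334 with no filter on low counts, 422 and 302 with the stricter filter of edgeR (filterByExpr), 437 and 357 with the filter set on the resting libraries, and 386 and 331 in a fit of 15 libraries. With no fold cutoff they were 1575 and 1574. Leaving out 1 library at a time gave 258 to 618 upregulated and 260 to 395 downregulated genes, the former lowest without CCR2+ve replicate 4. The replicate block gave 628 and 427, with 426 and 345 of the genes called without it. It moved the interaction count from 74 to 470, raised 12 of the 202 genes of the text past the threshold, and changed no other call at an adjusted p of 0.05. That count was 534 by DESeq2, 113 with RLE size factors, 122 with filterByExpr and 145 with no filter, and 0 to 253 with 1 library left out. Of 3022 values of single genes under the alternatives, 2851 kept their direction and their side of an adjusted p of 0.05, 139 were no longer past it and 28 newly passed it. Of the 176 genes past it, 43 lost it in at least 1 alternative. The other 4 values changed sign, all near 0, in genes not past it. These were Ly6c2, at -0.064 without CCR1/2+ve replicate 4, -0.013 without CCR2+ve replicate 2 and -0.022 without CCR2+ve replicate 3 (-0.064 to 0.049 with 1 library left out), and Ly6g, at -0.058 without CCR1/2+ve replicate 3 (-0.058 to 0.392). Of 495 list medians, 434 moved by less than the spread, 55 by more and 6 changed sign. The median of the B cell markers was -0.20 with filterByExpr and -0.071 without CCR1/2+ve replicate 1 (-0.071 to 0.968), and that of the megakaryocyte markers 0.010 with filterByExpr, 0.10 without CCR1/2+ve replicate 3, 0.19 without CCR2+ve replicate 3 and 0.0033 without CCR2+ve replicate 4 (-0.404 to 0.192). With filterByExpr fewer members are tested, and for the rest the cause was not tested. Depth limits the genes under 0.1 CPM, where a few reads set the fold change.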
